A study of Mus musculus with 20 samples.

Results

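The livers of streptozotocin (STZ) injected mice were set out here by their signal for Cyp4a14, a cytochrome P450 that hydroxylates fatty acids at their methyl end. All 15 arrays of STZ livers were ranked by the signal of the Cyp4a14 probe set. The 5 highest, called the strong side, were compared with the 5 lowest, called the weak side, for the log2 signal of every other gene. These 10 arrays are part of 20 in the series. The arrays were chosen by a measured value, so the differences between the sides are given as a description, with no test. The strong side held 2 livers of mice given STZ and a plain diet, 2 given STZ and 0.1% phloridzin, and 1 given STZ and 0.5% phloridzin. The weak side held 1, 2 and 2 of them.

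All mice were male BALB/c, 6 weeks old on arrival, and each array held the liver RNA of 1 mouse. Diabetes was induced with 1 intraperitoneal dose of STZ, which kills beta cells of the pancreas, at 185 mg/kg. Diabetic mice, with blood glucose of 330 to 590 mg/dL at the start, then ate AIN93G diet alone or with 0.1% or 0.5% phloridzin, an inhibitor of sodium-glucose cotransporters, for 14 days. Untreated mice received no injection and ate AIN93G diet. Each of the 4 groups had 5 arrays. Mice were housed 3 to a cage, and the sources used here do not give which arrays shared a cage, the time of day of each killing, or the blood glucose or food intake of each mouse.

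As background, Cyp4a14 is among the genes of mouse liver that answer most to PPARα, the nuclear receptor for fatty acids, which drives fatty acid oxidation and ketone production in fasting and in diabetes. Liver lipid synthesis is driven by insulin through SREBP-1c, and gluconeogenic genes and Igfbp1 are held down by insulin through FOXO1. Liver genes that differ between male and female mice are set by the pulse pattern of growth hormone. Glucocorticoids raise metallothioneins and enzymes of amino acid breakdown.

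Values are signals on a linear scale that the authors had scaled to a common mean, and differences are in log2(signal + 16), which understates the change of dim genes. A fold is 2 to the power of that difference. Array median log2 signals lay between 5.51 and 5.60 on the strong side and between 5.60 and 5.73 on the weak side. The ratio of the 3′ to the 5′ probe set of Actb, a measure of RNA length, lay between 1.81 and 2.36 on the strong side and between 1.68 and 1.92 on the weak side. Their part in the results was not tested. The strong array STZ 0.1% phloridzin replicate 4 stood apart. Its spike-in control bioD read 14067, against 3120 to 3449 on the other 4 strong arrays, and its highest signal was 35267, against 12211 to 15182. The weak array STZ replicate 1 stood apart by its Cyp4a14 signal. Results without either array are given below.

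On the strong side Cyp4a14 read 6103 (0.1% phloridzin replicate 5), 5867 (STZ replicate 5), 4737 (0.5% phloridzin replicate 1), 4394 (STZ replicate 2) and 4074 (0.1% phloridzin replicate 4). On the weak side it read 1014 (0.1% phloridzin replicate 1), 964 (0.1% phloridzin replicate 2), 807 (0.5% phloridzin replicate 4), 734 (0.5% phloridzin replicate 2) and 48.9 (STZ replicate 1). Values of single arrays are given below in these orders. Untreated livers read 5.80 to 33.1, so 4 of the 5 weak livers were far above untreated livers and STZ replicate 1 was just above them. The nearest array outside the strong side, 0.1% phloridzin replicate 3, read 4055, only 0.0065 log2 units below its lowest member. The nearest outside the weak side, 0.5% phloridzin replicate 3, read 2491, a gap of 1.28 log2 units. The levels thus had a break above the weak side and none below the strong side, and the 5 arrays between ran from 2491 to 4055.

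**Figure D1:**
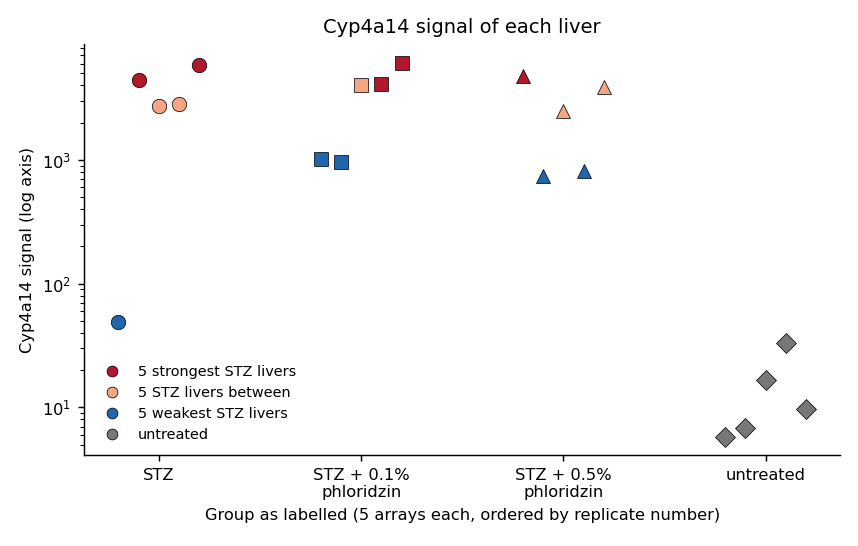
Cyp4a14 signal (log axis) of each of the 20 livers by labelled group, coloured by rank among the 15 STZ livers. Strong and weak livers occur in all 3 STZ groups, the 5 weak livers read 1014 or less, and the 10 others read 2491 or more.

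Cyp4a14 averaged 3169 ± 2171 in STZ livers, 3242 ± 2219 with 0.1% phloridzin and 2529 ± 1795 with 0.5% phloridzin (SD, n = 5 each), against 14.4 ± 11.2 in untreated livers. The differences were 0.60 ± 0.90 log2 units for 0.1% phloridzin minus STZ and 0.23 ± 0.90 for 0.5% phloridzin minus STZ (SE), with limma adjusted p of 0.982 and 0.997. Over 12947 genes, limma called 0 genes (0%) in each of these 2 comparisons, with 685 and 622 genes at an unadjusted p under 0.05. For Cyp4a14 the difference between diets was smaller than the spread within each diet group.

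Of 12946 other genes, 586 (4.53%) were higher on the strong side with no overlap of the 5 and 5 arrays, and 1037 (8.01%) were lower. Genes that also differed by at least 1 log2 unit, called set apart below, were 79 higher (0.61%) and 98 lower (0.757%). Without 0.1% phloridzin replicate 4 they were 103 and 129, and without STZ replicate 1 they were 86 and 116. The median difference of all genes was −0.037. In bulk liver, fewer cells of a type and less RNA per cell cannot be told apart. The higher set was led by Sult1e1, Lepr, Ppp1r3g, Mt2 and Cyp39a1, and the lower set by Hsd3b5, Elovl3, Cyp4a12a, Slco1a1 and Serpina12. In these leading higher genes 0.5% phloridzin replicate 5, between the sides, read above every strong liver. In the leading lower genes no liver between read below every strong liver. The mean of the livers between was above all weak livers for 77 of the 79 and below them for 98 of the 98. They thus shared most differences from the weak side. The 95 named genes kept the sign of their difference without STZ replicate 1, and 94 of them kept it without 0.1% phloridzin replicate 4, Acaa1b being the exception. Those with no overlap could not change sign when 1 array was left out, so their kept sign is no check on that array.

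The relation was also fitted over all 15 STZ arrays, with no split and with diet as a term. Limma called 1336 genes associated with the log2 level of Cyp4a14, 564 of them higher (4.36%) and 772 lower (5.96%) with higher Cyp4a14, and 3539 genes had an unadjusted p under 0.05. With each array centred on its median, the calls were 531 higher and 472 lower, so that higher calls were 52.9% in place of 42.2%. This fit uses the arrays and the Cyp4a14 values that made the sides, so it is no independent support for the differences between them. Slopes below are log2 units of a gene per log2 unit of Cyp4a14, with their SE.

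Among only the 10 livers above the gap, where Cyp4a14 spans a narrower range, limma called 0 genes, with 621 genes at an unadjusted p under 0.05 and a smallest adjusted p of 0.110. By chance alone, a share of about 0.05 of genes has an unadjusted p under 0.05. Of the 1336 genes called over 15 livers, 1169 had the same direction in these 10 and 189 had an unadjusted p under 0.05. The 10 livers are among those 15, in which the named genes were also picked. Shared direction is thus partly built in and is no independent support. Of the 77 named genes called over 15 livers, 74 had the same direction, 56 of these with a steeper slope, and 41 had an unadjusted p under 0.05. The slope of Slco1a1 was −2.45 ± 0.33 in the 10 livers and −0.72 ± 0.14 over 15. That of Elovl3 was −2.51 ± 0.46 and −0.72 ± 0.18, and that of C6 −1.19 ± 0.18 and −0.50 ± 0.072. None of these 3 was called in the 10 livers, with limma adjusted p of 0.110, 0.349 and 0.110. Without STZ replicate 1 and 0.5% phloridzin replicate 2 their slopes were −1.33, −1.44 and −0.86. For Mt1 the slope was less steep, at 0.25 ± 0.14 in the 10 livers and 0.78 ± 0.060 over 15. Leaving out STZ replicate 1, whose Cyp4a14 was lowest, gave 2349 calls.

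**Figure D2:**
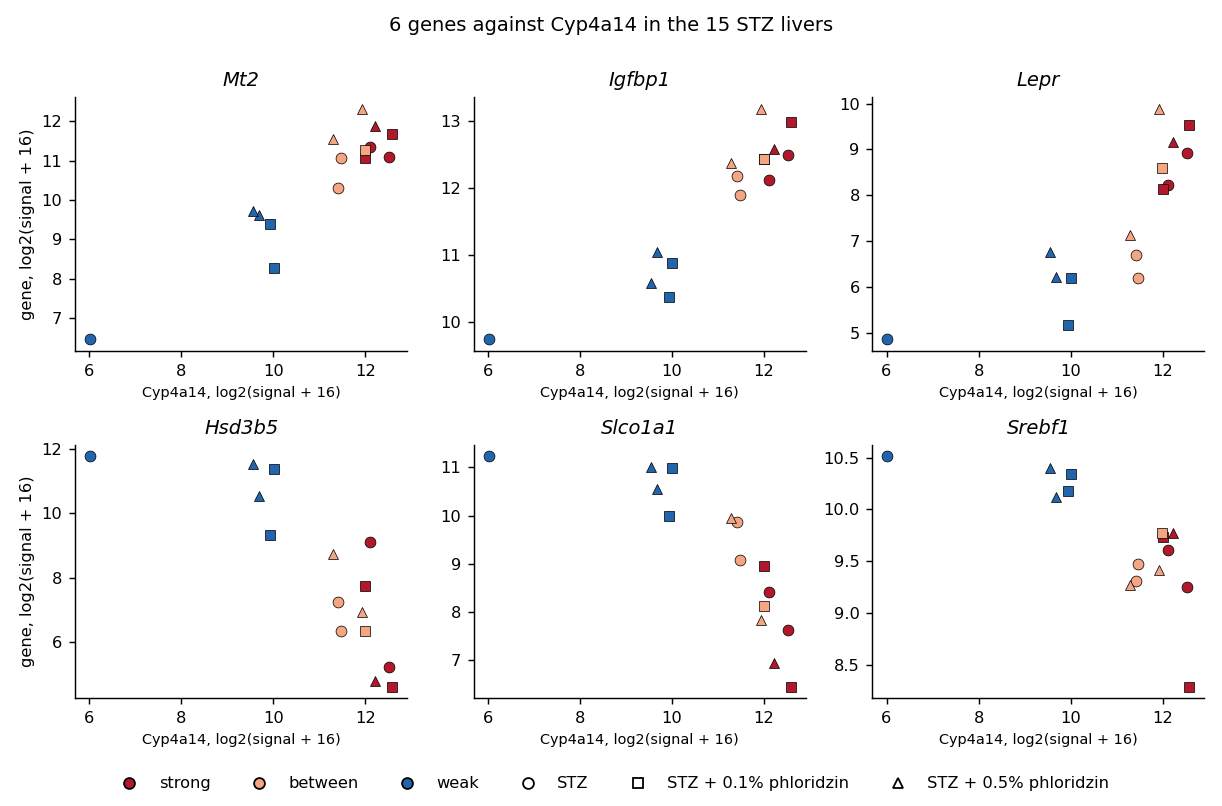
Log2(signal + 16) of 6 genes (vertical axes) against that of Cyp4a14 (horizontal axes) in the 15 STZ livers, with colour for the side and shape for the diet. Mt2, Igfbp1 and Lepr are higher and Hsd3b5, Slco1a1 and Srebf1 lower in the strong livers than in the 5 weak livers, with STZ replicate 1 alone at the left.

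The metallothioneins Mt1 and Mt2, small proteins that bind zinc and copper, had the smallest p of all genes over all STZ arrays. With STZ replicate 1 and 0.5% phloridzin replicate 2 left out, adjusted p by limma was 0.00026 for Mt2 and 0.00081 for Mt1. Other named genes then had smaller values, such as Sult1e1 (0.00011) and C6 (0.00014). Among only the livers above the gap, unadjusted p by limma was 0.026 for Mt2 and 0.11 for Mt1. The start regions of Mt1 and Mt2 are shown for their rank over all STZ arrays. They are the 250 bases before and 50 after the RefSeq gene start (GRCm38.p6). Capitals mark matches to TGCGCNC or TGCACNC, core letters of the metal response element, searched on both strands, with no overlap between matches. Mt1 lies at chr8:94178839-94179138 and Mt2 at chr8:94172368-94172667, both on the + strand.
Mt1: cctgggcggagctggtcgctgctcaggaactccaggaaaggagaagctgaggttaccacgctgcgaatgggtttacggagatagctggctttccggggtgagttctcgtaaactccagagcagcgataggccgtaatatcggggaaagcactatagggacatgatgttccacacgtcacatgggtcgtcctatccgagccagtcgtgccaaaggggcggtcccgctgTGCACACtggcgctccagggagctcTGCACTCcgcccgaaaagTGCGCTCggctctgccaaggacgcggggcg
Mt2: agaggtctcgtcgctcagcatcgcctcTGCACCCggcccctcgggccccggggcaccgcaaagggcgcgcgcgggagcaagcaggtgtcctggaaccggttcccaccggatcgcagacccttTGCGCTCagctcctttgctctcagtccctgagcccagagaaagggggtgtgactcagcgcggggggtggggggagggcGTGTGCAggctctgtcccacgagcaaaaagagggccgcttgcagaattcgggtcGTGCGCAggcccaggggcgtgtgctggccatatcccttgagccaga
Mt1 had 3 matches and Mt2 had 4. Of 32851 promoters of the same length, 25.7% held at least 1 match, 1.97% at least 3 and 0.517% at least 4. A match is a run of letters and not a measured site.

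Mt2 read 3241, 2155, 3777, 2581 and 2139 on the strong side, against 294, 652, 776, 833 and 71.8 on the weak side and 41.3 to 99.7 in untreated livers. Every strong liver was above every weak liver, and STZ replicate 1 lay within the untreated range. Its difference was 2.72 log2 units (6.57-fold), and its slope was 0.85 ± 0.062 (limma adjusted p = 4.8e-06). Mt1 read 8511, 5363, 8354, 5124 and 7723 on the strong side, against 958, 2335, 2608, 1786 and 245 on the weak side and 146 to 255 in untreated livers. Its 5.58-fold difference showed the same order, again with STZ replicate 1 in the untreated range. Without STZ replicate 1 the differences were 2.16 for Mt2 and 1.92 for Mt1.

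Igfbp1 encodes a liver protein that binds insulin-like growth factors and is repressed by insulin. Its start region (chr11:7197537-7197836, + strand) is shown for its match, in capitals, to CAAAACA, core letters of the insulin response sequence at which FOXO1 binds. This match, searched on both strands, was found once in it and at least once in 6.28% of promoters.
Igfbp1: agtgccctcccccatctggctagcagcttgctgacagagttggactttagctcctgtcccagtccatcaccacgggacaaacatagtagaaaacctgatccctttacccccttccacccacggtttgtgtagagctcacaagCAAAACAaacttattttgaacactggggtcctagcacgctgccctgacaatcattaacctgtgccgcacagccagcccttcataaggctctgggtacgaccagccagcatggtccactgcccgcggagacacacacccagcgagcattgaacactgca
Igfbp1 read 8074, 5722, 6082, 4407 and 5484 on the strong side, against 1865, 1315, 2098, 1514 and 841 on the weak side and 654 to 1438 in untreated livers. Strong and weak livers did not overlap, while 2 of the 5 weak livers lay within the untreated range. The difference was 3.97-fold, with a slope of 0.55 ± 0.064 (limma adjusted p = 0.00049). Igfbp2, a second binding protein of these growth factors, averaged 5021 ± 800 on the strong side and 2196 ± 512 on the weak side (SD, n = 5 each), with no overlap and a slope of 0.31 ± 0.041.

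The gene lists were chosen with earlier results of these data known. For comparison with each list, 4.53% of all genes were higher and 8.01% lower with no overlap. Limma called 4.36% of all genes higher and 5.96% lower. Among 18 measured targets of the glucocorticoid receptor, 12 were higher on the strong side with no overlap and 0 were lower. The median difference of the 18 was 1.05 log2 units, beside −0.037 for all genes. These 12 were Cebpb, Cebpd, Dusp1, Fkbp5, Gadd45g, Lpin1, Mt1, Mt2, Sgk1, Sult1e1, Tat and Tsc22d3. They include a phosphatase of MAP kinases (Dusp1), a cochaperone of the receptor (Fkbp5) and tyrosine aminotransferase (Tat). The differences were 1.53 log2 units for Fkbp5, 1.16 for Dusp1, 1.07 for Cebpd, 1.00 for Tsc22d3 and 0.95 for Tat, with limma adjusted p from 0.0037 for Fkbp5 to 0.040 for Tsc22d3. Limma called 14 members, all with higher levels at higher Cyp4a14. Without 0.1% phloridzin replicate 4 the count with no overlap, which could not fall, was 12, with 12 called. Corticosterone was not measured in these files.

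Sult1e1, an oestrogen sulfotransferase, had the largest difference of the genes higher on the strong side. It read 789, 513, 574, 624 and 502 on the strong side, against 54.0, 57.7, 76.8, 53.6 and 5.64 on the weak side and 0.560 to 8.62 in untreated livers. The gap was wide, and STZ replicate 1 again lay within the untreated range. The difference was 3.36 log2 units (10.3-fold), with a slope of 0.90 ± 0.093 (limma adjusted p = 0.00016).

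Lepr, the leptin receptor, read 726, 470, 556, 284 and 267 on the strong side, against 58.0, 20.3, 58.5, 93.5 and 13.2 on the weak side and 7.52 to 15.1 in untreated livers. Its difference was 7.72-fold. The livers between the sides spread from 57.5 to 932, so this gene also varied above the gap. Its slope in the 10 livers above the gap was 2.35 ± 0.33, but with an adjusted p of 0.110 it was not called there. Ppp1r3g, which targets protein phosphatase 1 to glycogen, averaged 520 ± 231 on the strong side and 69.0 ± 48.2 on the weak side. Cyp39a1, an oxysterol hydroxylase, averaged 363 ± 155 and 42.9 ± 17.1 (strong and weak). Nrg4, a secreted ligand of ERBB4, averaged 385 ± 77.6 and 97.6 ± 48.1 (SD, n = 5 each side). Limma called these last 3 in the association, with adjusted p of 0.0037, 0.0034 and 0.046.

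**Figure D3:**
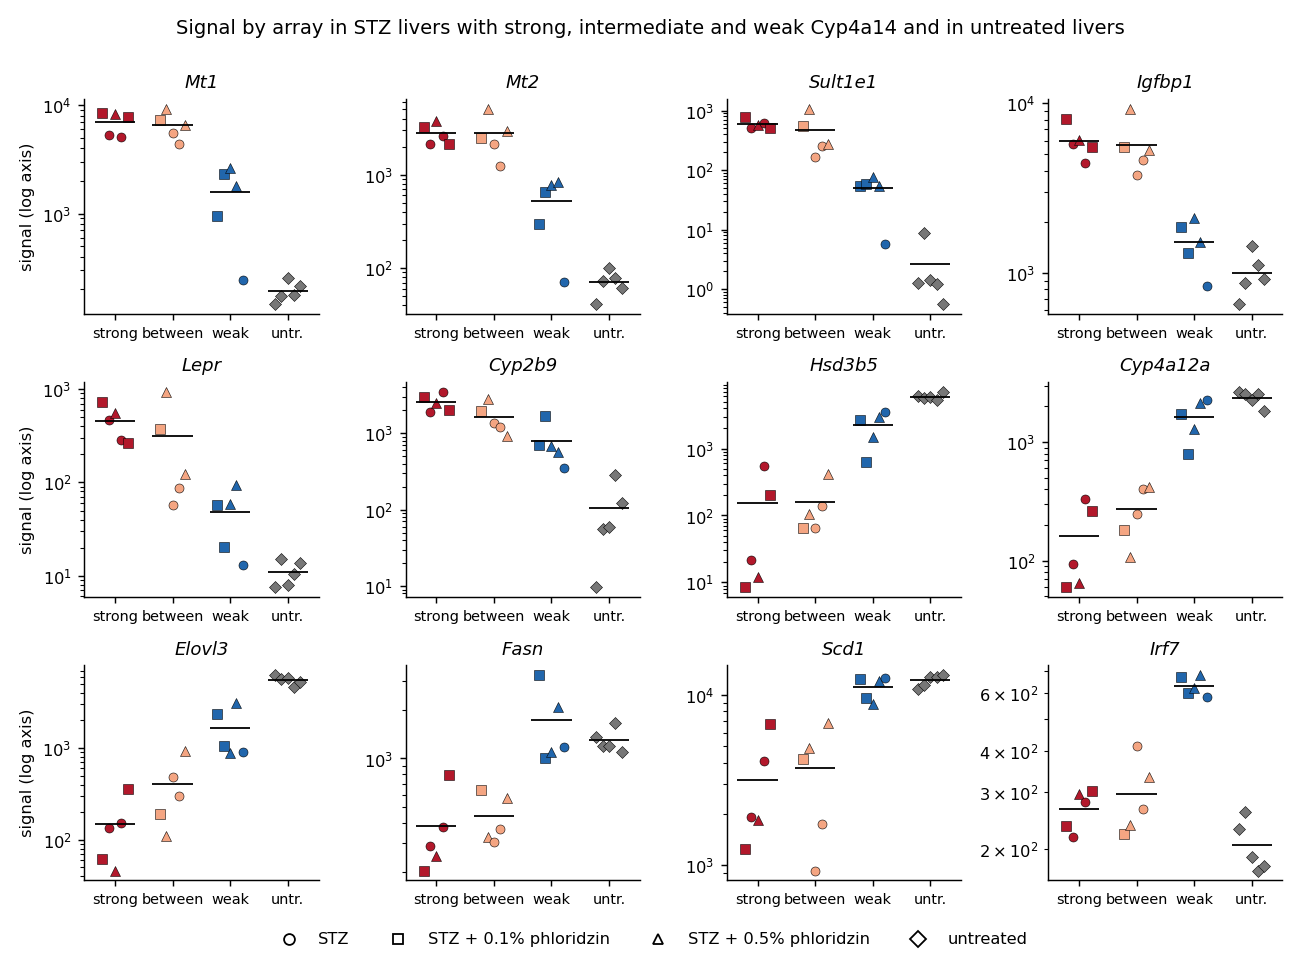
Signal (log axis) of 12 genes in each array, in strong, intermediate and weak livers and untreated livers, with bars at the mean and shape for the labelled group. In all 12 genes the 5 strong and 5 weak livers do not overlap.

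Genes with higher levels in male liver were lower on the strong side. Of 18 measured members, 12 were lower with no overlap and 0 higher, with a median difference of −1.08, and limma called 13 members, all lower with higher Cyp4a14. Without 0.1% phloridzin replicate 4 the counts were 15 and 14, beside 1394 and 724 of all 12946 genes. The first of these counts could not fall. Hsd3b5, a steroid dehydrogenase and reductase of male mouse liver, read 8.45, 21.3, 11.9, 539 and 199 on the strong side, against 2669, 629, 1485, 2962 and 3504 on the weak side and 5285 to 6986 in untreated livers. The weak livers lay below all untreated livers and above all strong ones. This was the largest difference of all genes, −4.62 log2 units (24.6-fold lower), with a slope of −1.18 ± 0.21 (limma adjusted p = 0.0046).

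Cyp4a12a, a P450 that makes 20-HETE from arachidonic acid and is of the same subfamily as Cyp4a14, read 59.5, 93.5, 64.7, 330 and 261 on the strong side. Weak livers read 1732, 789, 1291, 2131 and 2265, and untreated livers 1824 to 2648. The sides did not overlap, and weak livers reached into the untreated range. The difference was −3.42 log2 units and the slope −0.84 ± 0.13 (limma adjusted p = 0.0025). The transporter Slco1a1 averaged 234 ± 170 on the strong side and 1791 ± 543 on the weak side, and complement component C6 averaged 181 ± 42.5 and 847 ± 190 (SD, n = 5 each side). Serpina12, which encodes the secreted inhibitor vaspin, averaged 42.5 ± 46.7 and 382 ± 233. For Serpina12 the difference moved from −2.89 to −1.46 when both its probe sets were averaged. Cyp7b1, an oxysterol 7α-hydroxylase, averaged 1448 ± 153 on the strong side, 2995 ± 974 on the weak side and 6033 ± 1173 in untreated livers, and 2 of its 3 probe sets pointed this way.

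Of 16 measured genes with higher levels in female liver, 7 were higher on the strong side with no overlap and 1 (Ntrk2) was lower, with a median difference of 1.03. Limma called 8 higher and 1 lower. Cyp2b9, a P450 of female mouse liver, read 2960, 1920, 2480, 3465 and 1989 on the strong side, against 703, 1668, 677, 571 and 345 on the weak side and 9.61 to 282 in untreated livers. All 5 weak livers were above all untreated livers and below all strong ones. Cyp17a1, a steroid hydroxylase and lyase, averaged 1875 ± 527 and 488 ± 347 (strong and weak), the flavin monooxygenase Fmo2 992 ± 252 and 277 ± 92.5, and the bile acid transporter Slco1a4 1514 ± 294 and 544 ± 222 (SD, n = 5 each side). Ntrk2, the receptor of the neurotrophin BDNF, averaged 88.4 ± 24.1 and 216 ± 54.1, and 6 of its 8 probe sets had this direction.

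In the growth hormone and IGF axis, 3 of 16 measured genes were higher on the strong side with no overlap and 2 were lower, with a median of −0.33. The higher ones were the binding proteins Igfbp1 and Igfbp2 and the signal inhibitor Socs2. The lower ones were the growth hormone receptor gene Ghr and the transcription factor Stat5a. Limma called 2 higher and 6 lower.

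Genes of fatty acid synthesis were lower on the strong side. Of 21 measured, 14 were lower with no overlap and 0 higher, with a median difference of −0.93, and limma called 12, all lower with higher Cyp4a14. The 14 were Acaca, Acacb, Acly, Acss2, Elovl3, Elovl5, Elovl6, Fasn, Gpam, Me1, Mlxipl, Scd1, Slc25a1 and Srebf1. Fasn, fatty acid synthase, read 204, 290, 251, 380 and 791 on the strong side, against 3252, 1008, 1093, 2062 and 1169 on the weak side and 1101 to 1653 in untreated livers. All strong livers were below all weak and untreated livers, and the highest strong liver was 0.1% phloridzin replicate 4. Scd1, the stearoyl-CoA desaturase, read 1237, 1929, 1828, 4078 and 6734 on the strong side, against 12327, 9615, 8815, 12014 and 12604 on the weak side and 10866 to 13063 in untreated livers. The folds were 4.37 for Fasn and 4.18 for Scd1, both lower on the strong side, with limma adjusted p of 0.011 and 0.0092.

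Srebf1, which encodes SREBP-1, averaged 668 ± 233 on the strong side, 1259 ± 144 on the weak side and 886 ± 140 in untreated livers (SD, n = 5 each). Elovl3, a fatty acid elongase, averaged 150 ± 124, 1653 ± 1010 and 5508 ± 616 in the same order. Me1, malic enzyme, averaged 723 ± 170, 2722 ± 855 and 2719 ± 424. The weak and untreated means of Me1 lay within the spread between arrays, and Elovl3 was below all untreated livers on both sides. Pklr, liver pyruvate kinase, averaged 305 ± 109 on the strong side and 769 ± 195 on the weak side.

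Cholesterol synthesis and uptake had 18 measured genes, of which 7 were lower on the strong side with no overlap (Dhcr7, Fdps, Msmo1, Nsdhl, Pmvk, Sc5d and Sqle) and 0 higher, with a median difference of −1.02. Limma called 4 of the 18, all lower with higher Cyp4a14, and 15 without STZ replicate 1. Over all 12946 genes, lower calls were 772, and 1474 without STZ replicate 1. Sqle, squalene epoxidase, averaged 40.1 ± 14.9 on the strong side, 121 ± 25.8 on the weak side and 114 ± 21.4 in untreated livers. Sc5d, a sterol desaturase, averaged 699 ± 136, 1777 ± 506 and 2229 ± 240. Fdps, farnesyl diphosphate synthase, differed by −1.81 log2 units, and by −0.89 with its 2 probe sets averaged, since 1 of the 2 did not have this direction.

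**Figure D4:**
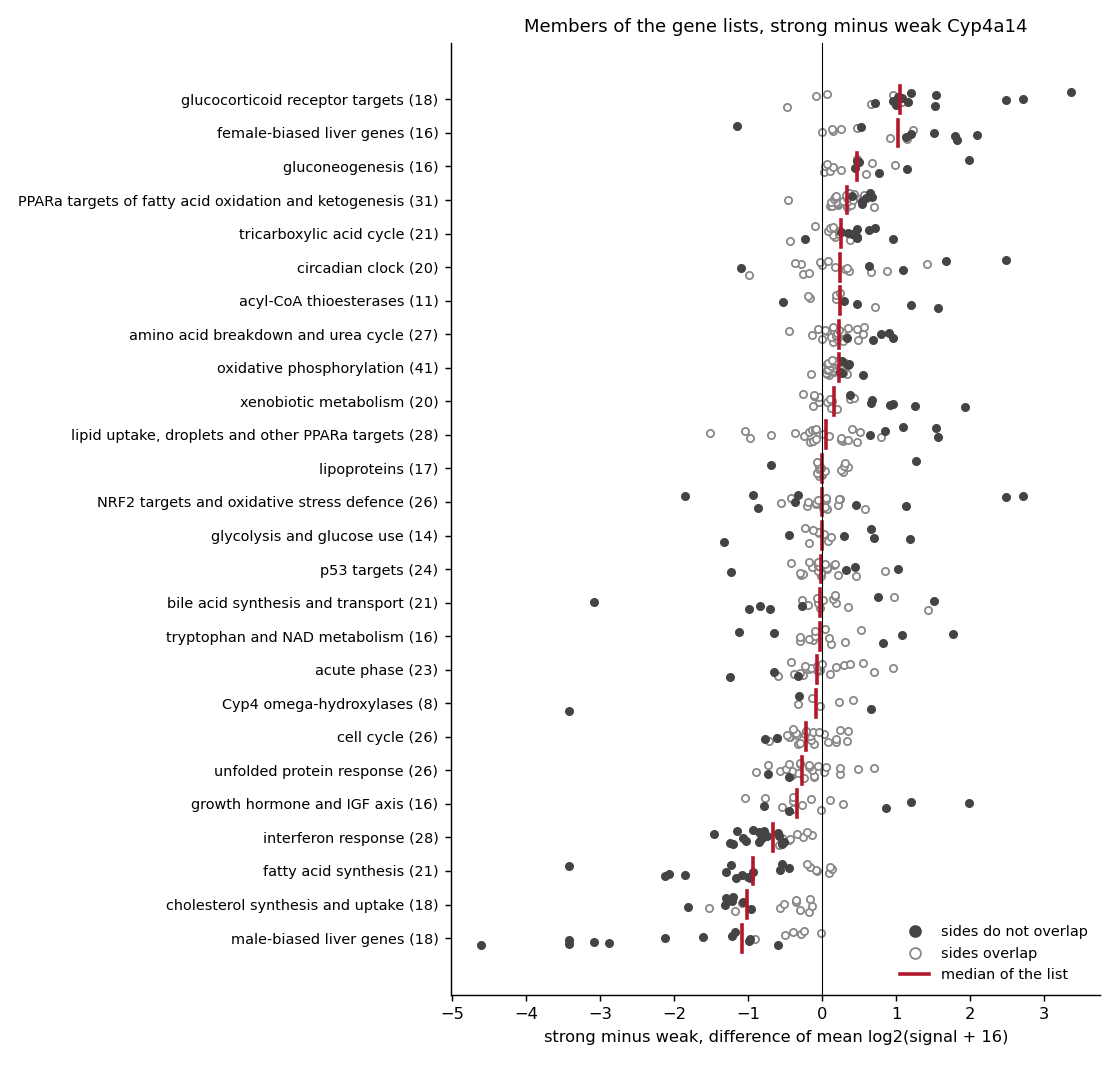
Strong minus weak difference of mean log2(signal + 16) (horizontal axis) for every measured member of 26 gene lists (vertical axis, with the number measured), with filled points where the sides do not overlap. The medians (red) are highest for glucocorticoid receptor targets at 1.05 and lowest for male-biased liver genes at −1.08. The lists were chosen with earlier results of these data known. These 2 hold genes of the largest differences, such as Sult1e1 and Mt2 in the first and Hsd3b5 and Elovl3 in the second.

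Cyp4a14 belongs to the PPARα targets, whose other members are given next. Of 31 measured genes of fatty acid oxidation and ketogenesis, 6 were higher on the strong side with no overlap (Acadl, Eci1, Eci2, Etfdh, Retsat and Slc25a20), 0 were lower and 0 were set apart by 1 log2 unit. Their median difference was 0.34, and limma called 7, all higher with higher Cyp4a14. Cpt1a, the carnitine palmitoyltransferase of the outer mitochondrial membrane, averaged 2663 ± 206 on the strong side and 2469 ± 434 on the weak side, with overlap. Ehhadh, a peroxisomal oxidation enzyme, averaged 2212 ± 285 and 1748 ± 167, also with overlap. Acaa1b, a peroxisomal thiolase, averaged 8440 ± 2381 and 7677 ± 861, and its difference of 0.11 became −0.050 without 0.1% phloridzin replicate 4. Ppara itself averaged 1008 ± 94.6 on the strong side, 1066 ± 123 on the weak side and 1112 ± 98.8 in untreated livers. Limma called none of these 4, with adjusted p from 0.059 to 0.91.

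Other PPARα targets varied in size and direction. Acot1, a cytosolic acyl-CoA thioesterase, read 871, 595, 459, 561 and 767 on the strong side, against 143, 262, 265, 303 and 115 on the weak side and 117 to 268 in untreated livers. The sides did not overlap, and weak and untreated livers did, for a 2.96-fold difference. Acot3 differed 2.30-fold, and Acot4 1.38-fold, with no overlap. Limma called Acot4 (adjusted p = 0.046) and did not call Acot3 (adjusted p = 0.096). Acot2, Pdk4, Cd36 and Vnn1 had overlapping sides, with differences of 0.71, 0.57, 0.47 and 0.51 log2 units. Cyp4a31, measured by a probe set of its own, averaged 59.4 ± 16.9 on the strong side and 31.2 ± 5.93 on the weak side, with no overlap, but its slope had an adjusted p of 0.088. Angptl4, an inhibitor of lipoprotein lipase, averaged 1365 ± 109 and 753 ± 83.4, with no overlap.

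Plin2, the main lipid droplet coat protein of hepatocytes, was lower with overlap, at 2627 ± 922 on the strong side and 5020 ± 1006 on the weak side, against 5749 ± 416 in untreated livers. Plin4, another droplet coat protein, averaged 123 ± 52.2 on the strong side and 31.1 ± 18.5 on the weak side. Lpin1 and Lpin2, phosphatidate phosphatases, differed 2.90-fold and 2.14-fold, both higher on the strong side with no overlap. Fgf21, a fasting hormone of the liver, averaged 27.1 ± 18.0 on the strong side, 69.7 ± 29.6 on the weak side and 178 ± 32.6 in untreated livers. Limma called Fgf21 lower with higher Cyp4a14 (adjusted p = 0.036), though the sides overlapped.

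Of 16 measured genes of gluconeogenesis, 6 were higher on the strong side with no overlap (Foxo1, G6pc, Gpt2, Igfbp1, Mdh1 and Ppargc1a) and 0 lower, with a median of 0.47, and limma called 7, all higher. G6pc, glucose-6-phosphatase, averaged 3489 ± 539 on the strong side, 2081 ± 473 on the weak side and 2117 ± 252 in untreated livers. Ppargc1a, a coactivator of fasting genes, averaged 186 ± 38.5, 73.9 ± 7.98 and 40.2 ± 4.60. Pck1, phosphoenolpyruvate carboxykinase, averaged 7489 ± 1340 and 4958 ± 999 (strong and weak), with overlap and an adjusted p of 0.065. In the tricarboxylic acid cycle, 10 of 21 were higher with no overlap and 1 lower, with a median of 0.26, and limma called 8 higher. In amino acid breakdown and the urea cycle, 5 of 27 (Aass, Asl, Prodh, Slc25a15 and Tat) were higher with no overlap and 0 lower. In oxidative phosphorylation, 6 of 41 were higher and 0 lower. Without 0.1% phloridzin replicate 4 the counts were 6 and 1 for the first list and 11 and 1 for the second. Over all 12946 genes they were then 854 and 1394.

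In tryptophan and NAD metabolism, 3 of 16 were higher with no overlap and 2 lower. Nnmt, which methylates nicotinamide, averaged 3024 ± 579 on the strong side, 888 ± 240 on the weak side and 39.8 ± 15.9 in untreated livers. The lowest strong value, 2017, was that of 0.1% phloridzin replicate 4. Nampt, which makes nicotinamide mononucleotide, averaged 532 ± 148 on the strong side, 244 ± 77.7 on the weak side and 120 ± 12.8 in untreated livers, with no overlap of the sides but an adjusted p of 0.083. Kyat3, a kynurenine aminotransferase, averaged 3146 ± 258 and 1778 ± 298 (strong and weak). Aox3, an aldehyde oxidase, averaged 838 ± 162, 1842 ± 330 and 3341 ± 248 in strong, weak and untreated livers. In bile acid synthesis and transport, 2 of 21 were higher and 5 lower. Cyp7a1, the rate-limiting enzyme of bile acid synthesis, averaged 1026 ± 413 on the strong side and 449 ± 383 on the weak side. Its sides overlapped, since STZ replicate 1 had 1087, and limma did not call it (adjusted p = 0.22).

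Of 20 genes of xenobiotic metabolism, 7 were higher on the strong side with no overlap and 0 lower. Without 0.1% phloridzin replicate 4 the counts were 7 and 2, beside 854 and 1394 of all 12946 genes. Cyp2b10, a P450 induced through the receptor CAR, read 375, 322, 336, 232 and 356 on the strong side, against 61.5, 168, 77.6, 61.2 and 36.0 on the weak side and 9.68 to 22.4 in untreated livers. Its sides did not overlap, and all weak livers were above all untreated livers. Cyp2c37, a P450 of pericentral hepatocytes, averaged 94.1 ± 8.39 on the strong side and 32.2 ± 15.7 on the weak side. Gsta2, a glutathione transferase, averaged 2196 ± 490 and 989 ± 219 (strong and weak).

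Phlda3, a target of p53, read 176, 271, 206, 275 and 286 on the strong side, against 309, 358, 309, 248 and 258 on the weak side and 17.5 to 35.1 in untreated livers. Both sides were far above untreated livers. STZ replicate 1, with 258, was thus far from untreated livers in Phlda3 though near them in Cyp4a14. The difference between the sides was −0.28, with overlap, and limma did not call it (adjusted p = 0.42). Of 24 p53 targets, 3 were higher with no overlap and 1 lower, with a median of −0.015. Over all genes, 4.53% were higher and 8.01% lower with no overlap. Gadd45a, a stress protein of DNA repair, averaged 23.3 ± 8.87 on the strong side, 75.0 ± 13.8 on the weak side and 41.9 ± 11.2 in untreated livers. Trp53inp1, a stress protein induced by p53, went the other way, at 2818 ± 257, 1419 ± 381 and 820 ± 59.4 (limma adjusted p = 0.0019).

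Interferon response genes were lower on the strong side. Of 28 measured, 19 were lower with no overlap and 0 higher, with a median of −0.67, and limma called 21, all lower with higher Cyp4a14. Without 0.1% phloridzin replicate 4 the counts were 21 and 21, beside 1394 and 724 of all 12946 genes. The first of these counts could not fall. Irf7, a transcription factor of the response, read 235, 218, 296, 279 and 301 on the strong side, against 674, 601, 624, 681 and 586 on the weak side and 172 to 259 in untreated livers. Weak livers were thus above both strong and untreated livers. Bst2, tetherin, averaged 617 ± 101 on the strong side, 1281 ± 188 on the weak side and 687 ± 38.3 in untreated livers, and the antiviral gene Ifit1 averaged 77.9 ± 31.1, 201 ± 38.2 and 88.2 ± 12.3. The guanylate-binding protein gene Gbp6 averaged 148 ± 48.6, 420 ± 53.6 and 267 ± 40.9, and the chemokine gene Cxcl9 105 ± 25.1, 248 ± 25.4 and 97.1 ± 22.0. Ifi27, an interferon-induced gene, averaged 1638 ± 267, 2855 ± 333 and 1141 ± 184. Saa1, an acute phase protein, averaged 482 ± 81.5 on the strong side and 1175 ± 256 on the weak side. Of 23 acute phase genes, 3 were lower with no overlap and 0 higher, beside 8.01% lower over all genes. Without 0.1% phloridzin replicate 4, 9 of the 23 were lower, beside 1394 of all 12946 genes.

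Markers of some other cell types differed between the sides. The summed signal of 13 Kupffer cell and macrophage markers lay between 3957 and 4764 on the strong side, between 5056 and 5628 on the weak side, and between 3624 and 4409 in untreated livers. Of these markers, 6 were lower on the strong side with no overlap. The 15 stellate cell and fibroblast markers summed to 3057 to 3667 on the strong side and 3983 to 4420 on the weak side, with 6 lower. Col3a1, a fibrillar collagen, averaged 196 ± 44.1 and 420 ± 87.0. The measured 7 of 10 B and plasma cell markers summed to 139 to 209 and 227 to 419, and the measured 6 of 9 neutrophil markers to 117 to 164 and 179 to 290 (strong and weak). Sums of sinusoidal endothelium, MHC class II, T and NK cell, cholangiocyte, adipocyte and muscle markers overlapped. The part of these cells in the results was not tested.

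Alas2, the erythroid form of the first enzyme of heme synthesis, averaged 243 ± 99.3 on the strong side, 953 ± 296 on the weak side and 1327 ± 70.0 in untreated livers, and made up most of the sum of the measured 3 of 7 erythroid markers. The other erythroid markers, Klf1 and Slc4a1, differed by 0.27 and 0.19 log2 units, higher on the strong side with overlap. Cela1, an elastase and 1 of the 2 measured of 10 pancreas markers, averaged 396 ± 48.6, 856 ± 58.3 and 1611 ± 184 in strong, weak and untreated livers. The other pancreas marker, Prss2, differed by 0.33 log2 units, higher on the strong side with overlap. The 8 hepatocyte markers summed to 58693 to 163390 on the strong side, the highest being 0.1% phloridzin replicate 4, and to 69723 to 95522 on the weak side. Of 14 pericentral hepatocyte markers 2 were higher with no overlap and of 13 periportal markers 3, with 0 lower in either. Without 0.1% phloridzin replicate 4, 2 pericentral markers were higher and 2 lower, and 3 periportal markers were higher and 1 lower. Of all 12946 genes, 854 were then higher and 1394 lower with no overlap.

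**Figure D5:**
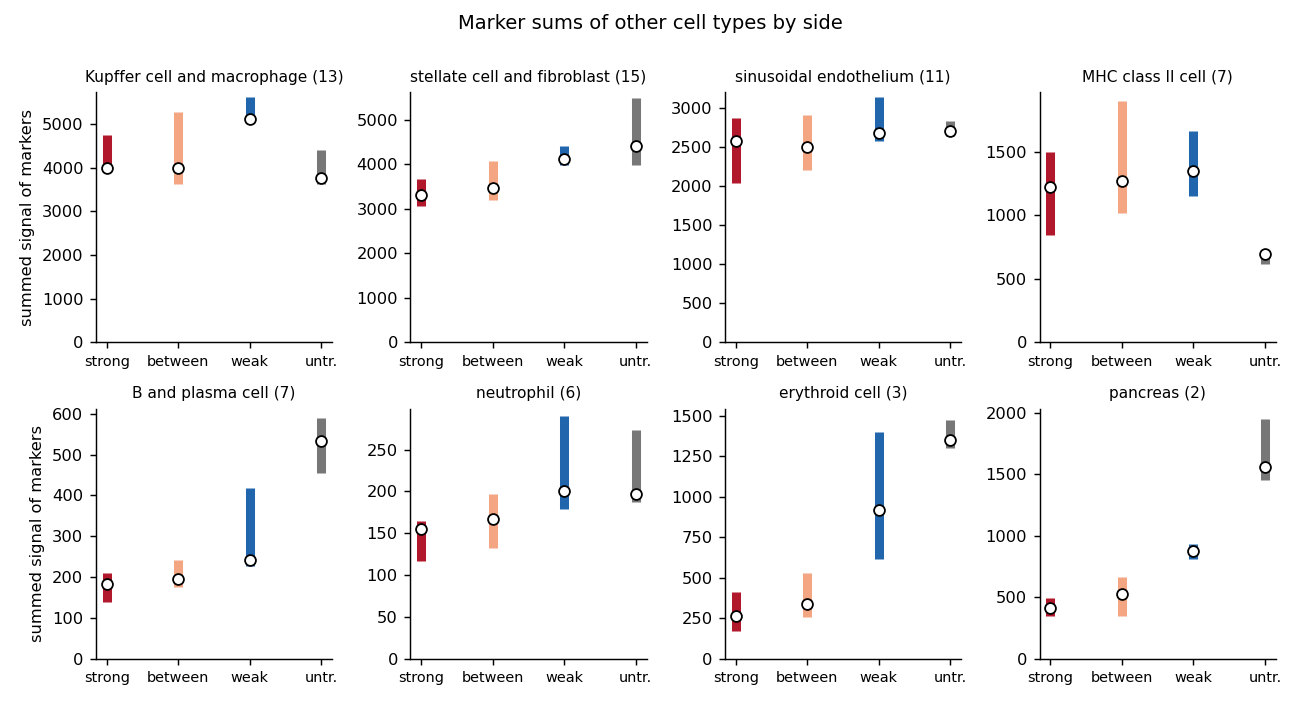
Summed signal of the measured markers of 8 cell types (vertical axes, from 0; number of markers in brackets) in strong, intermediate, weak and untreated livers, with bars from the lowest to the highest array and points at the median. Kupffer cell, stellate cell, B cell, neutrophil, erythroid and pancreas sums do not overlap between strong and weak livers. The last 2 differ through Alas2 and Cela1, while Klf1, Slc4a1 and Prss2 were higher on the strong side with overlap. Of the B cell markers, 3 were lower on the strong side with no overlap and 1 was higher.

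Among 20 circadian clock genes, 4 were higher on the strong side with no overlap and 1 lower, and limma called 2 higher and 1 lower. Without STZ replicate 1 limma called 10 higher and 3 lower, beside 875 and 1474 of all 12946 genes. Noct, a rhythmic NADP phosphatase, read 1352, 1190, 1174, 1472 and 1226 on the strong side, against 193, 120, 271, 199 and 361 on the weak side and 90.3 to 139 in untreated livers. The sides did not overlap, and the livers between them read 637 to 1830, all above the weak side. Usp2, a ubiquitin protease with a strong daily rhythm, averaged 588 ± 46.8 on the strong side and 198 ± 116 on the weak side, with no overlap but an adjusted p of 0.058. Cry1, a repressor of the clock, averaged 127 ± 44.8 and 49.2 ± 7.42, and Nr1d1, the repressor REV-ERBα, 111 ± 21.3 and 258 ± 63.1 (strong and weak). Dbp, a clock output factor, averaged 1257 ± 332 on the strong side and 1197 ± 607 on the weak side, with overlap, and 142 ± 93.9 in untreated livers. The time of killing of each mouse is not given, and its part was not tested.

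Some genes tracked Cyp4a14 most closely with smaller differences. Of genes higher with it, Rasgef1b, Retreg1, Crcp, Phf14 and Prxl2c had differences of 1.66, 1.12, 0.78, 0.60 and 0.56 log2 units with no overlap. Arhgef3 was called (adjusted p = 0.0012) though its sides overlapped slightly, at 137 ± 21.5 on the strong side and 86.2 ± 23.0 on the weak side. STZ replicate 1 read 47.6, against 86.2 to 107 in the other weak livers. With that array and 0.5% phloridzin replicate 2 left out, limma did not call Arhgef3 (adjusted p = 0.079). Of genes lower with higher Cyp4a14, Tuft1, Cyp2d40, Mup10, Arhgap9 and Dio1 had −1.15, −1.09, −1.93, −1.36 and −1.18. Of the probe sets of Phf14, 4 of 6 had the direction given, and of Arhgap9 2 of 4. Tuft1 read 64.2, 57.4, 55.3, 98.2 and 61.3 on the strong side, against 133, 124, 120, 177 and 355 on the weak side and 240 to 320 in untreated livers. Weak livers other than STZ replicate 1 lay between strong and untreated livers. Its slope was −0.35 ± 0.031 (limma adjusted p = 2.2e-05). Dio1, the deiodinase that activates thyroid hormone in liver, averaged 6.94 ± 6.36, 35.3 ± 11.1 and 135 ± 33.4 in strong, weak and untreated livers.

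Of the 79 genes higher on the strong side, all 5 weak livers were above all 5 untreated livers for 28, and the weak mean was above the untreated mean for 67. Of the 98 genes lower on the strong side, all 5 weak livers were below all 5 untreated livers for 21, and the weak mean was below the untreated mean for 67. Over all 12946 genes, all 5 weak livers were above all untreated livers for 710 and below for 622, and the weak mean was above the untreated mean for 6348 and below for 6598. Nnmt, Cyp2b9 and Cyp2b10 are examples of genes whose strong and weak livers were all above all untreated livers.

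Among the other largest differences were 3 genes lower on the strong side. Arrdc3, an arrestin-like protein, averaged 358 ± 231 on the strong side, 1301 ± 252 on the weak side and 2098 ± 266 in untreated livers. Inhbe, the liver activin subunit, averaged 82.3 ± 41.9, 361 ± 96.2 and 323 ± 64.9 in the same order. Aqp8, a water channel, averaged 252 ± 122, 1007 ± 352 and 1609 ± 276. The sides did not overlap for any of them, and limma called all 3 lower with higher Cyp4a14.

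The remaining lists had medians between −0.27 and 0.24. With no overlap, Cyp4 omega-hydroxylases had 1 of 8 higher and 2 lower, acyl-CoA thioesterases 4 of 11 and 1, and lipid droplet and other PPARα genes 5 of 28 and 0. In the same way, NRF2 targets and oxidative stress defence had 4 of 26 higher and 5 lower, glycolysis and glucose use 4 of 14 and 2, unfolded protein response 0 of 26 and 2, cell cycle 0 of 26 and 2, and lipoproteins 1 of 17 and 1. Of these, the unfolded protein response had the lowest median, −0.27, and limma called 7 of its genes lower with higher Cyp4a14. Over all genes, 4.53% were higher and 8.01% lower with no overlap. The counts with no overlap for the unfolded protein response, cell cycle and lipoproteins were near these shares. Without 0.1% phloridzin replicate 4, lipid droplet and other PPARα genes had 5 higher and 3 lower, and cell cycle 1 and 2. All 12946 genes then had 854 higher and 1394 lower. Vldlr, the receptor of very low density lipoprotein, averaged 154 ± 67.8 on the strong side and 52.6 ± 19.1 on the weak side. Pfkfb3, a regulator of glycolysis, averaged 105 ± 34.6 and 36.8 ± 13.4.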

How the data were processed

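RNA of 20 livers was hybridised to Affymetrix mouse arrays, 1 array per mouse, per the labels. The deposited values are linear signal intensity per probe set, scaled by the authors, and their 2% trimmed means were equal on all 20 arrays. The software and its version are not given in the sources used here. Array number, not depth, limits precision. Of 45101 probe sets, 34945 had 1 gene, 932 several and 9160 none, by GEO's platform annotation. Each gene was taken from its brightest probe set, and genes under the 40th percentile (signal 8.48) were left out, which kept 12947. Values were analysed as log2(signal + 16).

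Strong and weak sides are described with no test. Limma 3.58.1 in R 4.3.3, with Benjamini-Hochberg adjustment and a threshold of 0.05, tested each gene against the Cyp4a14 level over 15 arrays with diet terms, and the 2 diets against STZ over 20 arrays. The association fit was tested on simulated data with residuals drawn independently for each gene. That setting does not cover genes that vary together. Samples are separate mice, but shared cages are not known.

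Genes named are the 12 largest differences each way, up to 4 set apart members of each list, those most like Cyp4a14 by Pearson correlation over 15 arrays (10 like, 5 opposite), up to 10 called each way by smallest p, and a panel. For some lists all members with no overlap are named. The members and lists were chosen with earlier results of these data known. Alternatives were other pseudocounts, filters, scalings, probe set rules, covariates and omitted arrays. Some genes of the panel are not reported here. Promoter sequences are from RefSeq.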

Additional observations from a re-analysis of the deposited data

Results flagged for a closer look

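In 15 of 208 groups of 5 arrays, 1 array lay far from the other 4 by Dixon's criterion. Chance gives about 1 in 20 such groups. Within the STZ group, Cyp4a14 stood at 6.02 on the log2 scale in replicate 1, whereas the remaining 4 livers read 11.41 to 12.52. The same liver was the low one on the weak side for Sult1e1 at 4.44 and for Arhgef3 at 5.99.

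The strong array 0.1% phloridzin replicate 4 was high in the spike-in controls bioB at 1447, bioD at 14067 and cre at 33369, and in its highest signal at 35267. Its log2 level was high for Bst2 at 9.66 and for Acaa1b at 13.63, and low for Nnmt at 10.99.

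The other livers that stood apart on the strong side were 0.1% phloridzin replicate 5 for Lpin2, high at 11.1, and STZ replicate 2 for Igfbp2, low at 11.83, and for Tuft1, high at 6.83. On the weak side they were 0.1% phloridzin replicate 2 for Pklr, low at 8.86, and 0.5% phloridzin replicate 4 for Gbp6, low at 8.42. The part of any 1 liver or mouse in these values was not tested.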

How the results depend on the processing

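Of the strong minus weak differences of named genes under the alternatives, 1501 kept within the spread between arrays and 19 moved by more. Genes set apart lower were 194 with a pseudocount of 1. Leaving out 1 array at a time gave 71 to 103 genes set apart higher, 82 to 129 lower, 648 to 854 higher with no overlap and 1103 to 1394 lower. Counts with no overlap cannot fall when an array is left out. Leaving out 1 array at a time gave 345 to 875 associated genes higher and 434 to 1474 lower. The total moved by over 1.5 times to 802 without 0.1% phloridzin replicate 1, 862 without its replicate 2, 823 without its replicate 5, 782 without 0.5% phloridzin replicate 2, 781 without its replicate 4 and 2349 without STZ replicate 1. Lower calls were 472 with median centring and 437 with a pseudocount of 1. The cause was not tested. Among only the 10 livers above the gap, chosen after seeing the data, 0 higher and 0 lower genes were called by limma, with 621 at an unadjusted p under 0.05. There 1169 of the 1336 genes had the same direction, and of 77 named genes called over 15 arrays 74 had it, 56 with a steeper slope. The slopes of the other 3, Acot1 (−0.031), Plin4 (−0.076) and Pfkfb3 (−0.081), reversed. Fewer samples enter that fit, and they are among the 15 that gave the calls, so shared direction is partly built in. Same-numbered arrays had a median correlation of 0.251, against −0.0026 for unlike numbers, with 9 of 15 pairs over 0.1 and the lowest at −0.405, and 5 of 15 arrays were most like an array of their own number, so the numbers were not taken to pair the samples. With the replicate block, 55 genes were called, 29 higher and 26 lower. All 1336 kept their direction under it, and 1203 had an unadjusted p under 0.05. The diet comparisons had 0 calls with each array left out.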
